A study of Mus musculus with 8 samples.

Results

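Fibroblast growth factors (FGFs) and their receptors were followed in hair follicle stem cells sorted from mouse back skin. The members were the 10 rows of the deposited expression table with the symbols Fgf1, Fgf2, Fgf5, Fgf18, Fgf22, Fgfr1, Fgfr2, Fgfr3, Fgfr4 and Fgfbp1, out of 46517 genes. The table gives TPM, the unit in which RSEM reports a transcript's abundance, a level scaled for transcript length, so that levels of different genes within a library can be set side by side. It holds 8 libraries in 4 groups of 2. All came from male mice at postnatal day 70, in the second resting phase (telogen) of the hair cycle, and every strain carried R26-YFPfl/fl, a reporter that Cre turns on.

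The wild-type (WT) group was NFIBfl/fl;NFIXfl/fl with no Cre, so its mice carried floxed alleles of both genes. The NFIB-cKO group was Sox9-CreER;NFIBfl/fl, and the NFIB/X-dKO group was Sox9-CreER;NFIBfl/fl;NFIXfl/fl. The NFIX-cKO group was Sox9-CreER;NFIBfl/+;NFIXfl/fl, so that 1 Nfib allele was floxed there too. Sox9-CreER is an inducible Cre expressed with Sox9, which is active in hair follicle stem cells and in other follicle epithelium. All cells were sorted as DAPI negative, Sca-1 negative, integrin alpha 6 positive and CD34 positive. Cells of the 3 Cre strains were also sorted as YFP positive and the WT cells were not, so gene deletion, Cre and the YFP gate cannot be told apart in a comparison with WT. The labels number the libraries without saying that each came from a separate mouse, and p-values then measure only the spread between these libraries.

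NFIB and NFIX are transcription factors of the nuclear factor I (NFI) family. The targeted genes did not show the deletion. Nfib stood at 229.56 and 208.98 TPM in WT, 293.27 and 232.80 in NFIB-cKO, 199.97 and 147.91 in NFIX-cKO, and 376.85 and 388.57 in NFIB/X-dKO. Nfib was thus not below WT in any of the 4 libraries labelled as lacking NFIB, and it was higher in those 4 than in the other 4 by 0.70 ± 0.13 (log2, SE; limma, adjusted p = 0.0405). Nfix stood at 158.02 and 157.10 TPM in WT, 154.20 and 147.38 in NFIB-cKO, 138.38 and 123.35 in NFIX-cKO, and 125.11 and 148.08 in NFIB/X-dKO. The Nfix difference of NFIB/X-dKO from WT was -0.21 ± 0.13 (limma, adjusted p = 0.433). These are values of whole genes, which also count exons outside a deleted part, and the floxed exons are not given in the sources used here. They therefore check neither the deletion nor the labels, and every direction given here is between libraries as labelled.

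FGFs are secreted proteins that bind receptor tyrosine kinases together with heparan sulphate, a sugar chain on cell surfaces and in the matrix. The receptors signal through adaptor proteins to the RAS-ERK cascade, which in turn induces feedback inhibitors. In skin, Fgf18 made in the follicle is known for holding follicles at rest, and Fgf5 for ending hair growth. Fgfr2 in epithelium is known as the receptor for FGFs made by the dermis.

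Promoter sequences are shown for the receptor that was higher in NFIB/X-dKO than in WT (Fgfr2) and for the resting-phase ligand (Fgf18), since NFI proteins bind DNA at the half-site TTGGC. RefSeq promoters (GRCm38.p6, 250 bases before to 50 after the gene's start) were matched for 8 of the 10 members, with 9 promoters. Each sequence shown is given 5′ to 3′ on the gene's strand, which is the minus strand for both, and capitals mark the half-site. The windows are chr7:130266759-130267058 for Fgfr2 and chr11:33147351-33147650 for Fgf18.
Fgfr2: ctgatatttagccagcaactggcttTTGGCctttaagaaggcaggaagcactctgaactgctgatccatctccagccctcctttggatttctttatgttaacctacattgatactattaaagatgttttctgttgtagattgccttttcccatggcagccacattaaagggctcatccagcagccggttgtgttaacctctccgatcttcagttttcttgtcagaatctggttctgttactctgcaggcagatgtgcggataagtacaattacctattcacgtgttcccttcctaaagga
Fgf18: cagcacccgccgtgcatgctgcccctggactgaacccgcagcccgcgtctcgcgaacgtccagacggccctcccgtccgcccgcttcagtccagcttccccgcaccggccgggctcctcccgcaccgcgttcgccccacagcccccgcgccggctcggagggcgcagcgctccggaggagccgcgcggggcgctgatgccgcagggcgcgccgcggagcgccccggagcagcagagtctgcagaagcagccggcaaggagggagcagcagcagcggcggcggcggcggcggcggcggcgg

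The half-site was searched on both strands. The Fgfr2 window holds it 1 time, with its first base at -225 from the start, and the Fgf18 window does not hold these letters. Of the 9 member promoters 2 hold it, those of Fgfr2 and Fgfr4, and 46.7% of 32851 promoters of the same length do. The full NFI palindrome, the half-site followed by 5 bases of any kind and its reverse complement GCCAA, so that it contains the half-site on each strand, was in 0 of the 9 and in 0.0365% of all promoters. The 2 windows also differ in base composition: the Fgf18 window is 78.7% G or C and the Fgfr2 window 43.7%. A match of letters is a description of the window and does not show binding.

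The 10 members fell into 2 ranges of expression. In WT the order by mean TPM was Fgfr1, Fgfr2, Fgfr3, Fgfbp1, Fgf1, Fgf18, Fgf2, Fgf22, Fgfr4 and Fgf5. The first 6 lay between 16.43 TPM (Fgf18) and 398.95 TPM (Fgfr1) in the 2 WT libraries, and the other 4 were all under 1 TPM there. Neighbours in this order did not overlap between the WT libraries, except Fgf2 with Fgf22 and Fgf22 with Fgfr4. Fgf5, Fgf22 and Fgfr4 stayed under the filter of at least 1 TPM in at least 2 libraries, so 7 of 10 members entered the tests across genes.

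**Figure D1:**
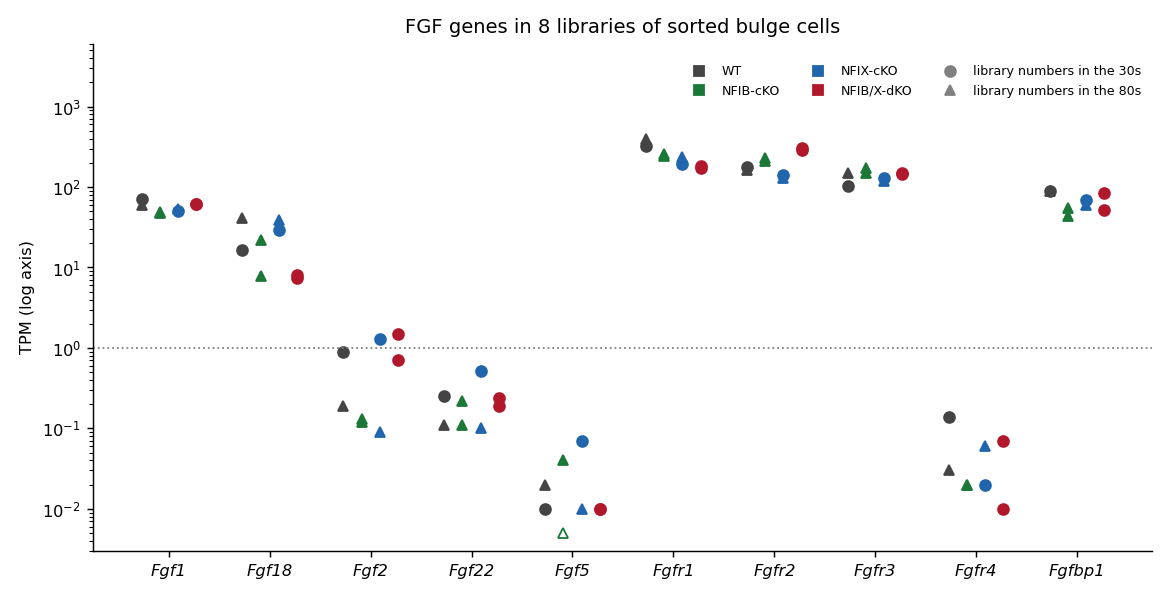
TPM of the 10 FGF members (log axis) in each of the 8 libraries, with colours for the 4 groups, circles for library numbers in the 30s and triangles for the 80s; the dotted line marks 1 TPM, and the open symbol at the bottom is Fgf5 in NFIB-cKO 85, listed at 0. Fgfr1, Fgfr2, Fgfr3, Fgf1, Fgfbp1 and Fgf18 lie above the line in all 8 libraries, and Fgf5, Fgf22 and Fgfr4 below it in all 8.

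Fgf18 was the most variable of the well-expressed ligands. Its TPM was 16.43 and 41.72 in WT, 29.23 and 39.46 in NFIX-cKO, 22.11 and 7.73 in NFIB-cKO, and 8.12 and 7.35 in NFIB/X-dKO. Both NFIB/X-dKO libraries lay below both WT and both NFIX-cKO libraries, while the 2 NFIB-cKO libraries were far apart and 1 of them exceeded a WT library. The NFIB/X-dKO to WT difference on the log2(TPM + 1) scale was -1.64 ± 0.54 (SE; limma, adjusted p = 0.192), and the interval ran from -2.91 to -0.38. It was -1.0 without WT 82 (adjusted p = 0.635) and -2.29 without WT 34 (adjusted p = 0.077). For the 4 libraries labelled as lacking NFIB against the other 4 it was -1.47 ± 0.38 (limma, adjusted p = 0.113), so Fgf18 did not pass in either comparison. Against NFIX-cKO, on the expected counts of these 4 libraries (1143 and 1711 for NFIX-cKO, 288 and 277 for NFIB/X-dKO), the log2 difference was -2.42 ± 0.28 with edgeR's quasi-likelihood test (adjusted p = 0.080). DESeq2 gave -2.44 on the same counts with an adjusted p of 8.97e-12, and edgeR without the filter on low counts gave an adjusted p of 0.0199, so the call depends on the tool. Without NFIX-cKO 32 or NFIX-cKO 88, 1 library stays in that group and the spread comes from the 2 NFIB/X-dKO libraries alone. These lay close together, with a median absolute log2 difference of 0.087, against 0.281 for the NFIX-cKO pair. Passing such a fit is therefore no support for a difference in Fgf18.

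Fgf1, a ligand that lacks a classical secretion signal, was at a moderate level in every library. Its TPM was 71.83 and 60.09 in WT, 48.06 and 48.39 in NFIB-cKO, 51.08 and 53.19 in NFIX-cKO, and 62.20 and 60.68 in NFIB/X-dKO. The NFIB-cKO and NFIX-cKO libraries lay below both WT libraries, and on unscaled TPM the NFIB/X-dKO libraries lay between the 2 WT values. After median-of-ratios scaling Fgf1 was 66.1 and 66.5 in WT and 54.9 and 54.5 in NFIB/X-dKO, so these too lay below both WT libraries. No difference of Fgf1 from WT passed the test. The NFIB-cKO difference from WT was -0.44 ± 0.13 on the log2 scale (limma, adjusted p = 0.207). That of NFIX-cKO was -0.33 ± 0.13 (adjusted p = 0.711), and NFIB/X-dKO stood at -0.10 ± 0.13 (adjusted p = 0.692).

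Fgf2, a ligand released from cells in a similar way, was low and split by library number more than by genotype. Its TPM was 0.89 and 0.19 in WT, 0.13 and 0.12 in NFIB-cKO, 1.30 and 0.09 in NFIX-cKO, and 1.49 and 0.71 in NFIB/X-dKO. The 4 libraries numbered in the 30s held 0.71 to 1.49 TPM and the 4 in the 80s 0.09 to 0.19, with no overlap. Both NFIB/X-dKO libraries are in the 30s and both NFIB-cKO libraries in the 80s, so for this pair the library series and the genotype cannot be told apart. The labels do not say what the numbers mark. With the groups in the model, Fgf2 differed by -0.87 ± 0.25 (80s minus 30s; limma, adjusted p = 0.0607). In expected counts Fgf2 held 305.63 and 24.42 in NFIX-cKO and 320.38 and 159.87 in NFIB/X-dKO. Its neighbour Nudt6, which overlaps Fgf2 on the opposite strand, held 6.34 to 11.53 TPM in the 30s and 4.89 to 5.92 in the 80s. Reads of these 2 genes cannot be told apart where the counting ignores strand. The predicted gene Gm43439 also overlaps exons of Fgf2, on the same strand.

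Fgf5 and Fgf22, a ligand close to those that bind epithelial Fgfr2, were near the lower limit of the data. Fgf5 ranged from 0 to 0.07 TPM over the 8 libraries, and the 5 libraries with counts held 0 to 7.12 expected counts. The library at 0, NFIB-cKO 85, had a total of 66854625 expected counts, and a count of 0 there allows up to 3 counts. Fgf22 ranged from 0.10 to 0.52 TPM, with 2 to 9 expected counts. Rnf126, which overlaps Fgf22 on the opposite strand, held 32.39 to 46.22 TPM, and its part in the Fgf22 values was not tested. No difference between the groups was detectable for Fgf5 or Fgf22 at this depth.

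Fgfr1 and Fgfr2, receptor tyrosine kinases for FGFs, differed between NFIB/X-dKO and WT in opposite directions. Fgfr1 fell and Fgfr2 rose, each past the test across all genes. They were the 2 members called among the 7 tested, beside 2.88% of 15434 genes called in that comparison (1.62% higher, 1.26% lower). The median difference of the 7 members was -0.10, and that of all genes was 0.16.

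Fgfr1 stood at 320.46 and 398.95 TPM in WT, 242.76 and 255.38 in NFIB-cKO, 195.17 and 233.56 in NFIX-cKO, and 172.96 and 181.51 in NFIB/X-dKO. No library of a Cre group reached the lower WT library, and the lowest 2 of the 8 were those of NFIB/X-dKO. Fgfr1 fell by 1.01 ± 0.15 on the log2(TPM + 1) scale from WT to NFIB/X-dKO, a ratio of 0.497 (limma, adjusted p = 0.0209). This call was lost with median-of-ratios scaling (adjusted p = 0.0665), with the 2 groups alone (0.0507) and without the filter on low values (0.0541). It was also lost without WT 82 (0.0695), NFIB-cKO 81 (0.0508), NFIB-cKO 85 (0.0506), NFIB/X-dKO 33 (0.194) or NFIB/X-dKO 36 (0.176). Within the 30s, WT is the 1 library WT 34, so that fit gives the same difference as leaving out WT 82 (-0.85) and is no separate support. Its adjusted p was 0.0334 with the spread pooled over the other groups, the lone library being assumed to vary like them.

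Fgfr1 did not pass in the single knockouts. Against WT it differed by -0.52 ± 0.15 in NFIB-cKO (limma, adjusted p = 0.196) and by -0.74 ± 0.15 in NFIX-cKO (adjusted p = 0.273). With the library series as a covariate both passed, at -0.66 (adjusted p = 0.0367) and -0.74 (adjusted p = 0.0389). A covariate of this kind rests on numbers whose meaning is not given.

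Fgfr2 stood at 178.89 and 164.78 TPM in WT, 229.45 and 213.71 in NFIB-cKO, 141.68 and 128.48 in NFIX-cKO, and 292.70 and 302.64 in NFIB/X-dKO. The 4 libraries labelled as lacking NFIB lay above the other 4 with no overlap, and NFIX-cKO lay below WT. Fgfr2 was 1.73 times as high in NFIB/X-dKO as in WT, a log2 difference of 0.79 ± 0.12 (limma, adjusted p = 0.0205). The call was lost with the 2 groups alone (0.0524) and without WT 82 (0.0675), NFIB/X-dKO 33 (0.194) or NFIB/X-dKO 36 (0.225).

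Across the 4 libraries labelled as lacking NFIB against the 4 that retain it, Fgfr2 rose by 0.75 ± 0.08 (limma, adjusted p = 0.00761). It was the 1 member called of 7, beside 2.48% of all genes called in this comparison (1.48% higher, 0.991% lower). The difference was 0.64 with median-of-ratios scaling (adjusted p = 0.0149). It missed the threshold without NFIB-cKO 81 (0.0512), NFIB/X-dKO 33 (0.063) or NFIB/X-dKO 36 (0.0724). Fgfr1 differed by -0.39 ± 0.11 there (adjusted p = 0.128).

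In NFIB/X-dKO against NFIX-cKO no member passed edgeR's quasi-likelihood test, where 59 of 18349 genes (0.322%; 0.120% higher, 0.202% lower) were called and 2701 had an unadjusted p under 0.05. Fgfr2 held 14328.17 and 14199.05 expected counts in NFIX-cKO and 27123.77 and 30233.71 in NFIB/X-dKO, a log2 difference of 0.93 ± 0.12 (edgeR, adjusted p = 0.0998). On TPM with limma the difference was 1.14 ± 0.12 (adjusted p = 0.0152), where 0.784% of genes were called (0.460% higher, 0.324% lower). DESeq2, which called more genes on these counts than edgeR did, gave 0.91 (adjusted p = 1.71e-05), so the call depends on the tool. Leaving out NFIX-cKO 32 or NFIX-cKO 88 keeps 1 library in that group. As for Fgf18, passing such a fit is no support for a difference in Fgfr2. The annotated Fgfr2 gene shares an exon on the same strand with Ctbp2, which held 23.64 to 24.55 TPM in WT, 33.86 to 34.21 in NFIB-cKO, 24.9 to 25.64 in NFIX-cKO and 24.76 to 29.53 in NFIB/X-dKO. Ctbp2 was thus highest in NFIB-cKO, and its part in the Fgfr2 values was not tested.

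**Figure D2:**
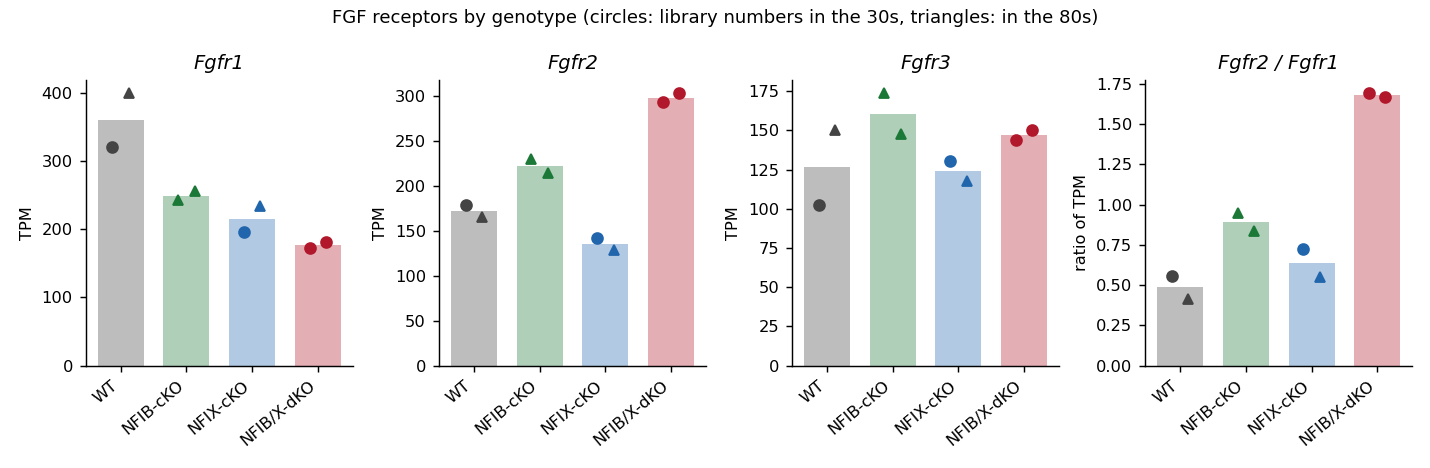
Bars give the mean TPM of 2 libraries for Fgfr1, Fgfr2 and Fgfr3 by group and, in the last panel, the mean ratio of Fgfr2 to Fgfr1 TPM; points are single libraries (circles for numbers in the 30s, triangles for the 80s). Fgfr1 is lower in NFIB/X-dKO (172.96 and 181.51 TPM) than in WT (320.46 and 398.95 TPM), Fgfr2 is higher (292.70 and 302.64 against 178.89 and 164.78 TPM), and the ratio is above 1 in the 2 NFIB/X-dKO libraries.

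The order of the receptors differed between groups. The ratio of Fgfr2 to Fgfr1 TPM was 0.558 and 0.413 in WT, 0.945 and 0.837 in NFIB-cKO, 0.726 and 0.550 in NFIX-cKO, and 1.69 and 1.67 in NFIB/X-dKO. Fgfr2 thus exceeded Fgfr1 in both NFIB/X-dKO libraries and in none of the other 6. The summed TPM of Fgfr1, Fgfr2 and Fgfr3 was 602 and 714 in WT and 610 and 634 in NFIB/X-dKO, so the sums overlapped. It was lower in NFIX-cKO, at 468 and 480. These ratios are descriptions of the levels already tested and were given no test of their own.

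Fgfr3 held an intermediate level in all groups and Fgfr4 was close to absent. Fgfr3 stood at 102.42 and 150.42 TPM in WT, 173.68 and 147.54 in NFIB-cKO, 130.76 and 117.97 in NFIX-cKO, and 144.02 and 150.21 in NFIB/X-dKO. The WT range overlapped that of every other group, and the NFIB/X-dKO difference from WT was 0.24 ± 0.19 (limma, adjusted p = 0.524; interval -0.21 to 0.70). Fgfr4 ranged from 0.01 to 0.14 TPM, with 1 to 4 expected counts in the 5 libraries with counts.

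Fgfbp1 encodes a secreted carrier that releases FGFs from heparan sulphate. It stood at 90.49 and 89.81 TPM in WT, 43.81 and 54.84 in NFIB-cKO, 68.63 and 59.46 in NFIX-cKO, and 85.29 and 51.36 in NFIB/X-dKO. All 6 libraries of the Cre groups lay below both WT libraries. No difference from WT passed. For NFIB-cKO it was -0.87 ± 0.24 (limma, adjusted p = 0.182), for NFIX-cKO -0.49 ± 0.24 (adjusted p = 0.767), and for NFIB/X-dKO -0.44 ± 0.24 (adjusted p = 0.395).

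In the other comparisons limma called 0 of the 7 members. In NFIB-cKO against WT 0.719% of genes were called (0.292% higher, 0.428% lower), and 1952 had an unadjusted p under 0.05. In NFIX-cKO against WT 0.149% were called (0.0842% higher, 0.0648% lower), and 1051 had an unadjusted p under 0.05. In NFIB/X-dKO against NFIB-cKO 0.227% were called (0.156% higher, 0.0713% lower), and 2654 had an unadjusted p under 0.05. In the last, Fgfr1 differed by -0.49 ± 0.15 (adjusted p = 0.267) and Fgfr2 by 0.42 ± 0.12 (adjusted p = 0.253). Comparisons with WT share the same 2 WT libraries.

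**Figure D3:**
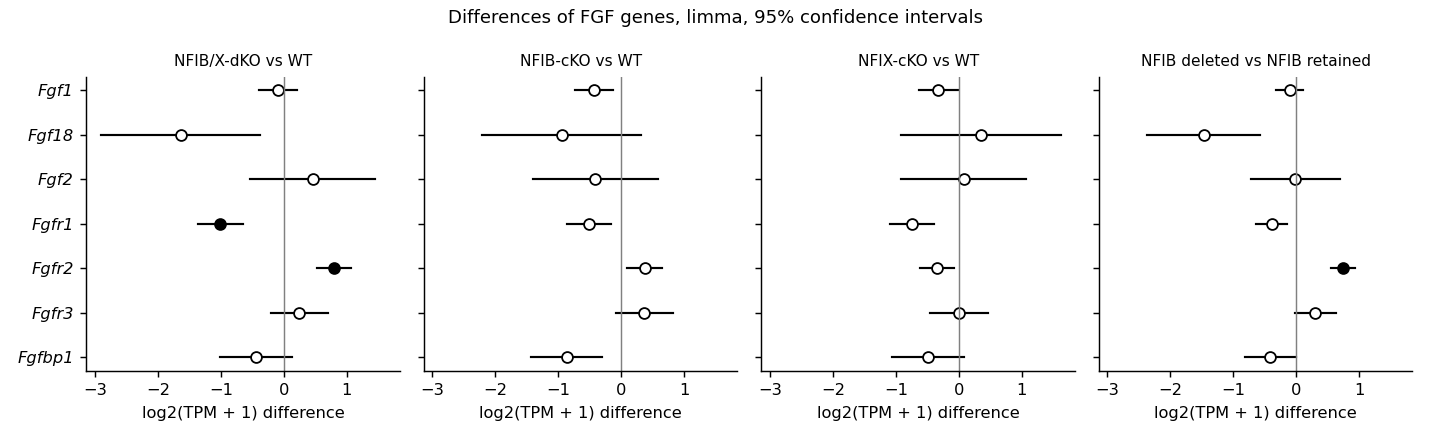
Differences on the log2(TPM + 1) scale of the 7 tested members in 4 limma comparisons, with 95% confidence intervals as lines; NFIB deleted and retained are as labelled, and filled points have an adjusted p under 0.05. The filled points are Fgfr1 (-1.01) and Fgfr2 (0.79) in NFIB/X-dKO against WT and Fgfr2 (0.75) in the 4 libraries labelled as lacking NFIB against the other 4.

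Genes with the most similar pattern were taken among 9768 genes with a mean of at least 5 TPM, by Pearson's r over the same 8 libraries. Predicted genes and genes with clone names (such as Gm and Rik symbols) had been left out of the 9768. Fgfr1 was most like Cebpd (r = 0.975), Fam13c (0.964) and Cacna1c (0.963). Fgfr2 was most like Pkd2 (0.986), Aebp2 (0.980) and Cluh (0.980), and Fgf18 was most like Comtd1 (0.948), Macrod1 (0.933) and Fxyd3 (0.925). These coefficients come from libraries that share group structure and were chosen as the highest of many.

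The rest of the pathway was read from lists of partner genes. In NFIB/X-dKO against WT, of 12 heparan sulphate enzymes measured 3 rose and none fell, beside 1.62% of all genes higher and 1.26% lower. Their median was 0.47 beside 0.16 for all genes, and 10 were higher. With median-of-ratios scaling 2 rose, 8 were higher and the median was 0.30. Sulf2, which removes sulphate groups from heparan sulphate, rose by 1.66 ± 0.21 (limma, adjusted p = 0.0120), from 38.95 and 34.29 TPM in WT to 119.36 and 116.18 in NFIB/X-dKO. Glce, an epimerase that shapes the chain, rose by 1.06 ± 0.15 (adjusted p = 0.0165), from 18.40 and 16.90 to 40.31 and 35.53 TPM. Hs3st6, a sulphotransferase, rose by 0.77 ± 0.15 (adjusted p = 0.0429). Hs3st6 also rose in NFIB-cKO (1.44, adjusted p = 0.0134) and in NFIX-cKO (1.23, adjusted p = 0.0406). Its TPM was 16.92 and 18.36 in WT, 54.30 and 44.87 in NFIB-cKO, 44.61 and 40.60 in NFIX-cKO, and 30.45 and 31.26 in NFIB/X-dKO. The NFIB-cKO call of Hs3st6 was lost within series (0.0662) and without WT 34 (0.0624), NFIB-cKO 81 (0.109), NFIB-cKO 85 (0.090) or NFIB/X-dKO 36 (0.0503). Its NFIX-cKO call was lost with no filter (0.0644), median-of-ratios scaling (0.0581), the compared groups only (0.493), within series (0.0855) and without any 1 of the 8 libraries (0.109 to 0.182). In NFIB/X-dKO against WT, the calls of Glce, Sulf2 and Hs3st6 were lost when either NFIB/X-dKO library or WT 82 was left out: without NFIB/X-dKO 33 the adjusted p was 0.194 for Glce, 0.116 for Sulf2 and 0.302 for Hs3st6. That of Hs3st6 was also lost with median-of-ratios scaling (0.111). That of Glce was also lost with the compared groups only (0.0513) and within series, where WT is 1 library.

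Of the 15 measured feedback and target genes of FGF signalling, 1 fell and none rose, beside 1.26% of all genes lower and 1.62% higher. Their median was -0.45 beside 0.16 for all genes. None was called with median-of-ratios scaling, with the series covariate or within series. Etv4, an ETS factor induced by ERK signalling, fell by 1.78 ± 0.35 (limma, adjusted p = 0.0473), from 19.75 and 20.08 TPM in WT to 6.30 and 4.06 in NFIB/X-dKO. It was 6.52 and 11.77 in NFIB-cKO and 8.43 and 14.66 in NFIX-cKO. The call was lost with a pseudocount of 0.1 (0.0525), with median-of-ratios scaling (0.0725) and when any library of WT, NFIB-cKO or NFIB/X-dKO was left out (0.0582 to 0.313). Dusp6, an ERK phosphatase picked out after its values were seen, split by library series: in the 30s it was 86.06 TPM in WT, 30.73 in NFIX-cKO and 81.71 and 90 in NFIB/X-dKO, and in the 80s it ran from 196.31 to 368.66.

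None of the 19 signal transducers passed, and 15 of them were higher (median 0.15); with median-of-ratios scaling 9 were higher. The 2 with the highest mean TPM were Hras (0.26 ± 0.15; limma, adjusted p = 0.412) and Mapk3, which encodes an ERK kinase (0.13 ± 0.11; adjusted p = 0.559). Among 14 co-receptors and extracellular partners none passed. Sdc4, a heparan sulphate proteoglycan, differed by 0.58 ± 0.14 (limma, adjusted p = 0.0835) and Sdc1, another, by -0.04 ± 0.21 (adjusted p = 0.928). Fgfrl1, a receptor without a kinase domain that was picked out after its values were seen, differed by -1.29 ± 0.30 (adjusted p = 0.0836). Of the 17 other ligands 2 were measured. Fgf13, an FGF that stays inside the cell, rose by 1.45 ± 0.27 (limma, adjusted p = 0.0439), from 0.53 and 0.66 TPM in WT to 3.57 and 3.14 in NFIB/X-dKO. That call was lost with no filter (0.126), median-of-ratios scaling (0.060) and the series covariate (0.0502). It was also lost within series and when any WT or NFIB/X-dKO library was left out. In the 4 libraries labelled as lacking NFIB against the other 4, Fgf13 (1.07, adjusted p = 0.0399), Glce (0.85, adjusted p = 0.0115) and Sulf2 (0.96, adjusted p = 0.0276) rose. The Fgf13 call was lost with no filter (0.124), median-of-ratios scaling (0.0577), within series (0.0573) and without any 1 of the 8 libraries (0.053 to 0.208). That of Glce was lost without NFIB-cKO 81 (0.0652), NFIB/X-dKO 33 (0.0888) or NFIB/X-dKO 36 (0.0724). That of Sulf2 was lost with no filter (0.0797) and without any library of WT, NFIB-cKO or NFIB/X-dKO (0.0592 to 0.132).

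**Figure D4:**
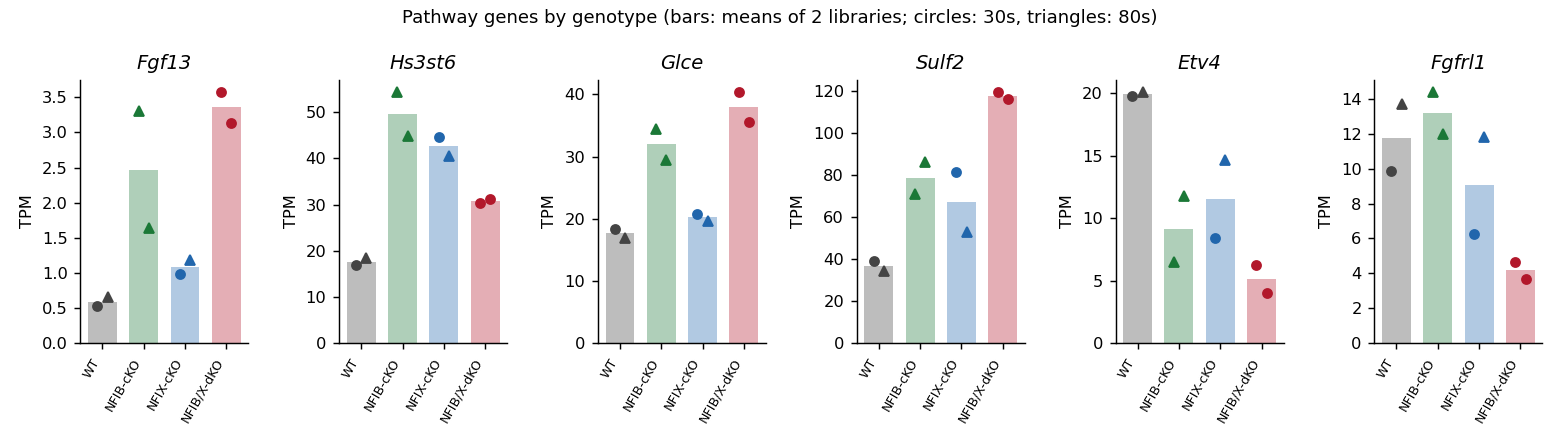
Mean TPM of 2 libraries (bars) and single libraries (circles for numbers in the 30s, triangles for the 80s) by group for Fgf13, Hs3st6, Glce, Sulf2, Etv4 and Fgfrl1, each on its own linear axis. Sulf2 and Glce are higher in both NFIB/X-dKO libraries (119.36 and 116.18, and 40.31 and 35.53 TPM) than in both WT libraries (38.95 and 34.29, and 18.40 and 16.90 TPM), and Etv4 is lower (6.30 and 4.06 against 19.75 and 20.08 TPM).

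All 13 bulge stem cell markers were measured, and Cd34, a marker of the sort, held 810.74 to 1143.56 TPM over the 8 libraries. In the single knockouts none of the bulge markers was called against WT, beside 0.719% of all genes in NFIB-cKO and 0.149% in NFIX-cKO. They summed to 28900 to 34200 TPM in WT and 24600 to 27200 in NFIB/X-dKO, with no overlap. The sums were 26500 to 32300 TPM in NFIB-cKO and 34400 to 35200 in NFIX-cKO. Most of each sum was Krt5, Krt15 and Krt14 (means of 13000, 12500 and 3920 TPM in WT). The median difference from WT was 0.0 in NFIB-cKO and -0.1 in NFIX-cKO. In NFIB/X-dKO against WT 3 of the 13 fell and none rose, beside 1.26% of all genes lower and 1.62% higher. Of the 13, 9 were lower, and the median was -0.47 beside 0.16 for all genes. Those that fell were Lhx2 (-1.42, limma, adjusted p = 0.00612), Lgr5 (-1.57, adjusted p = 0.0128) and Foxc1 (-0.90, adjusted p = 0.0317). With median-of-ratios scaling 3 fell (median -0.65), and with the series covariate 3 fell (median -0.27). Within series, where WT is 1 library, the median was -0.34. Values of single markers under these settings are not given here. Markers of other cells moved with some groups too. The 8 sebaceous gland markers summed to 280 to 485 TPM in WT, 111 to 136 in NFIB-cKO, 223 to 253 in NFIX-cKO and 104 to 105 in NFIB/X-dKO. This sum was thus below WT in every Cre group. Of the 10 fibroblast and dermal papilla markers 7 were below 1 TPM in all 8 libraries, Pdgfra, Dcn and Lum among them, as were 6 of 7 endothelial and mural markers. Of the other 3 fibroblast and dermal papilla markers, 1 rose and 1 fell from WT to NFIB/X-dKO, beside 1.62% of all genes higher and 1.26% lower. These counts were the same with median-of-ratios scaling and with the series covariate. Col1a1, a collagen, stood at 12.21 and 16.65 TPM in WT and 53.32 and 65.13 in NFIB/X-dKO, a rise of 1.97 (limma, adjusted p = 0.0219), and at 77.31 and 55.09 in NFIB-cKO. Crabp1, a retinoic acid binding protein, stood at 23.54 and 24.31 TPM in WT and 2.83 and 1.39 in NFIB/X-dKO, a fall, with a difference of -3.04 (adjusted p = 0.00477). Col1a2 differed by -1.63 and did not pass. In bulk samples fewer cells of a type and less RNA per cell cannot be told apart, and the part of these markers in the receptor differences was not tested.

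The library series moved with the groups. The 5 libraries with expected counts held 57173266 to 66854625; the depth of the other 3 is unknown. The series term called 2435 of 15434 genes (15.8%) and 1083 (7.07%) after median-of-ratios scaling. The 7 differentiated epidermis markers summed to 1290 to 2140 TPM in the 30s and 381 to 708 in the 80s, the split seen for Fgf2. The median difference of all genes, NFIB/X-dKO minus WT, was 0.16 on the log2(TPM + 1) scale, and the division of called genes moved with the scaling, from 250 higher and 195 lower to 199 higher and 243 lower. Fgfr1 with the groups in the model differed by 0.29 ± 0.08 between series (80s minus 30s; limma, adjusted p = 0.0565), and by 0.56 after scaling (adjusted p = 0.0329). With the series as a covariate, NFIB/X-dKO differed from WT by -0.87 for Fgfr1 (limma, adjusted p = 0.00959) and by 0.73 for Fgfr2 (adjusted p = 0.0157). Within the 30s, where WT is 1 library, Fgfr2 differed by 0.73. The part of the series in the receptor differences was tested only through these fits and those given above for Fgfr1.

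**Figure D5:**
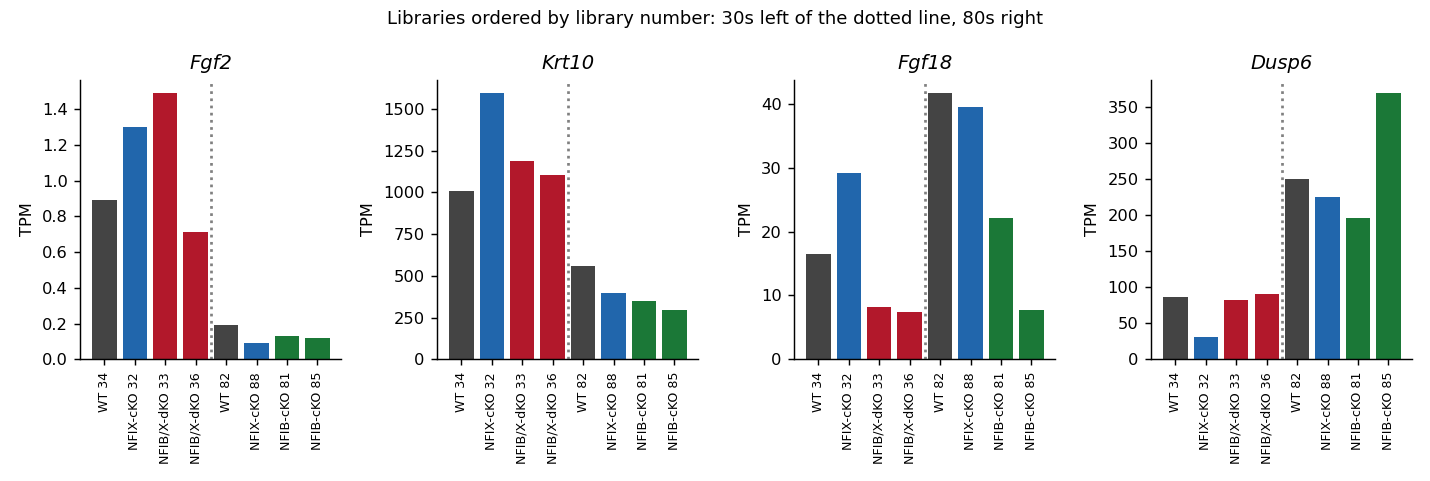
TPM of Fgf2, Krt10 (a differentiated epidermis keratin), Fgf18 and Dusp6 in each library, 1 bar a library coloured by group on a linear axis, with library numbers in the 30s left of the dotted line and the 80s right of it. Fgf2 and Krt10 are higher in the 30s (0.71 to 1.49 and 1009.97 to 1596.12 TPM) than in the 80s (0.09 to 0.19 and 295.61 to 557.32 TPM) with no overlap, and Fgf18 overlaps between them.

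The members lie on 8 chromosomes (mm10, RefSeq spans). Fgfr1 spans chromosome 8 from 25518759 to 25575718, Fgfr2 chromosome 7 from 130162451 to 130266808, Fgfr3 chromosome 5 from 33721724 to 33737068 and Fgfr4 chromosome 13 from 55152818 to 55168759. Fgf1 spans chromosome 18 from 38838672 to 38929470, Fgf5 chromosome 5 from 98254184 to 98277033 and Fgf22 chromosome 10 from 79755051 to 79757795. Fgf18 spans chromosome 11 from 33116970 to 33147400, Fgf2 chromosome 3 from 37348477 to 37410106 and Fgfbp1 chromosome 5 from 43978858 to 43981828. The values count reads over whole genes, in exons and UTRs alike.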

How the data were processed

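RNA from sorted cells was made into TruSeq mRNA libraries and sequenced as read pairs on either of 2 HiSeq models, per the labels' protocols. Bowtie2 2.2.9, RSEM 1.2.30 and the build mm10 are named in the submitters' processing notes; the annotation release and the strand setting are not given in the sources used here. Values as deposited are TPM for 8 libraries and, for 5 of them, the authors' expected counts and mean transcript lengths (another quantity in the deposited gene tables). TPM of the 5 gene tables equalled the shared table (largest difference 0). The 92 spike-in rows summed to 0 and were left out.

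Differences were fitted on log2(TPM + 1) in limma 3.58.1, under R 4.3.3 and allowing a trend of the variance with the mean, over 15434 genes with at least 1 TPM in at least 2 libraries, with Benjamini-Hochberg adjustment at 0.05 and all 8 libraries sharing the spread (4 residual and 3.1 prior degrees of freedom). A fold on this scale understates changes of low genes. NFIB/X-dKO against NFIX-cKO was tested with edgeR 4.0.16 (quasi-likelihood) on expected counts rounded to whole numbers, 18349 genes, with standard errors from the F statistic; DESeq2 1.42.0 was an alternative. Alternatives were another pseudocount, no filter, median-of-ratios scaling, compared groups only, the library series, and leaving out each library. The scripts were tested on simulated data. All members are named. Of the other lists those past the test are named, otherwise the 2 highest in mean TPM. Fgfrl1, Dusp6 and Krt10 were picked after their values were seen. Ctbp2, Nudt6, Gm43439 and Rnf126 were named for overlapping a member in a GENCODE annotation, which may differ from the one the authors used. There, Gm16159 also overlaps exons of Fgfr1 and G630022F23Rik those of Fgfr3, both on the opposite strand. Their part in the values of these receptors was not tested. Similar genes are the 3 highest in r. The members and lists were chosen with earlier results of these data known. Pairing was not used, since no replicate number is shared between groups.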

Additional observations from a re-analysis of the deposited data

Results flagged for a closer look

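Fgf18 stood at 22.11 TPM in NFIB-cKO 81, far above the other 3 libraries labelled as lacking NFIB, with a gap of 0.948 of the range of the 4. Fgf5 reached 0.07 TPM in NFIX-cKO 32, apart from the other 3 libraries that retain NFIB, and Fgfr4 reached 0.07 TPM in NFIB/X-dKO 36, apart from the other 3 that lack it; both rest on a few counts. Chance sets a library apart in about 1 of 20 groups. Fgf1 was lower in NFIB-cKO than in WT (-0.44) and higher in NFIB/X-dKO than in NFIX-cKO (0.23 on TPM), with no overlap in either pair. This rests on unscaled TPM: edgeR on the counts put the latter difference at -0.03, and after median-of-ratios scaling Fgf1 was 48.8 and 61.9 in the NFIX-cKO libraries and 54.9 and 54.5 in those of NFIB/X-dKO, which overlap. The difference between these 2 effects was 0.67 ± 0.18 (limma, adjusted p = 0.441), a test added after the data were seen.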

How the results depend on the processing

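Of the values for single genes under alternative settings, 520 kept their direction and their side of the threshold, 90 lost the call, 17 gained it and 21 reversed. No paired analysis was possible because no replicate number is shared between groups. A fit within a library series was not possible for NFIB/X-dKO against NFIB-cKO, which share no series. The cause of the changes below was not tested.

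Members called in NFIB/X-dKO against WT (2) became 1 with no filter, 1 with median-of-ratios scaling, 0 with the compared groups only, and 0 to 2 leaving out a library in turn. For NFIB deleted against retained, as labelled (1 member), the count was 2 with the series covariate, 2 within series and 0 to 1 leaving out a library. From 0 it became 1 with the series covariate in NFIB-cKO against WT, 1 with it in NFIX-cKO against WT, and 3 with the compared groups only in NFIB/X-dKO against NFIB-cKO. In NFIB/X-dKO against NFIX-cKO it became 2 with DESeq2, 1 with no filter, 1 with limma on TPM, and 0 to 4 leaving out a library.

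Genes called in NFIB/X-dKO against WT (445) became 270 with no filter and 40 (without NFIB/X-dKO 36) to 579 leaving out a library. NFIB-cKO against WT (111) gave 29 with no filter, 200 with the series covariate, 45 within series and 11 (without NFIB-cKO 81) to 157. NFIX-cKO against WT (23) gave 12 with the compared groups only, 44 with the covariate and 13 to 18. NFIB/X-dKO against NFIB-cKO (35) gave 23 with a pseudocount of 0.1, 71 with no filter, 3086 with the compared groups only, 22 with the covariate and 8 to 74. NFIB deleted against retained (382) gave 210 with no filter, 1214 with the covariate, 1006 within series and 63 (without NFIB/X-dKO 36) to 372. NFIB/X-dKO against NFIX-cKO (59) gave 830 with DESeq2, 202 with no filter, 121 with limma on TPM, and 0 (without either NFIB/X-dKO library) to 6939 (without NFIX-cKO 32).

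No reversed member difference had passed its test as reported. Against WT, NFIB/X-dKO ranged, leaving out a library, from -0.22 to 0.03 for Fgf1 and from -0.03 to 0.52 for Fgfr3. NFIB-cKO against WT gave 0.02 for Fgf2 with the covariate. NFIX-cKO against WT gave -0.06 for Fgf2 with a pseudocount of 0.1, and ranges leaving out a library of -0.26 to 0.62 for Fgf2, -0.29 to 1.0 for Fgf18 and -0.27 to 0.28 for Fgfr3. NFIB/X-dKO against NFIB-cKO gave 0.15 for Fgf18 and 0.08 for Fgfr3 with the covariate. Fgf2 ranged from -0.29 to 0.15 for NFIB deleted against retained. NFIB/X-dKO against NFIX-cKO gave 0.23 for Fgf1, 0.24 for Fgfr3 and 0.05 for Fgfbp1 with limma on TPM, and ranges leaving out a library of -0.20 to 0.16 for Fgf1, -0.36 to 3.19 for Fgf2, -0.09 to 0.07 for Fgfr3 and -0.54 to 0.16 for Fgfbp1.

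Depth limits what can be said of Fgf5, Fgf22 and Fgfr4, which rest on a few counts a library.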
